A study of Mus musculus with 8 samples.

Results

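Interferon-stimulated genes are the genes that a cell switches on when interferon binds its receptors. A list of 44 such genes was followed through every cell class of mouse lung tumours. Members were chosen by name, and 42 of the 44 symbols had a row among the 32286 features of the count matrices; Mx1 and Mx2 are not analysed here. The samples were lung adenocarcinomas of KPC mice, started by intratracheal lentivirus, in which CRISPR activation confined to tumour cells was aimed with dead guide RNAs (dRNAs) at Tomato (control, Con) or at Malat1, a nuclear long non-coding RNA (mA1). The largest tumours were taken 16 weeks after initiation, dissociated, depleted of dead cells, tagged with 2 hashtag antibodies (to CD45 and to MHC class I), and sequenced on the 10x Chromium platform, which counts unique molecular identifiers (UMIs, 1 per captured mRNA molecule). Each group had 2 libraries, and the 2 hashtags split each library into 2 tumours, 4 tumours a group. All groups shared the KPC background, the virus and the activation system. The samples are labelled KPC, while the text on the series speaks of KP mice. The labels give neither the alleles nor the animal behind each tumour, so p-values measure the spread between these samples only.

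After filters, 23774 cells remained, between 3774 and 7344 a library, of which 22545 fell into 22 classes named by marker genes, each written with the ending "-like" because the names were rebuilt here. The RNA that the mA1 guides target did not separate the labels: Malat1 in tumour-like epithelial cells stood at 40776 and 26424 UMIs per 1000000 UMIs of the class (CPM) in the Con libraries and at 26117 and 45918 in the mA1 libraries. The groups overlapped, so every direction below is between libraries labelled mA1 and Con. Con library 2 stood apart by sex-linked RNA, with Xist at 971 CPM in epithelial cells against at most 0.387 in the other 3, so results that rest on that library are also given without it. Between 86 and 261 cell barcodes were shared by any pair of libraries. Tumour-like epithelial cells numbered 534, 162, 154 and 137 in Con 1, Con 2, mA1 1 and mA1 2; only 27.2% of them carried a single hashtag, so there the library was the replicate.

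Type I interferons act through the receptor pair Ifnar1 and Ifnar2, type III through Ifnlr1 with Il10rb, and interferon gamma through Ifngr1 and Ifngr2. The first 2 receptor kinds activate a complex with Stat2 and Irf9 that binds the interferon-stimulated response element (ISRE); interferon gamma acts mainly through the gamma-activated site (GAS). The induced genes include antiviral effectors such as the IFIT proteins and viperin (Rsad2), the ubiquitin-like modifier Isg15, oligoadenylate synthetases, sensors of foreign nucleic acid, and the GBP and IRG GTPases that act on membranes of intracellular pathogens. In tumours these genes are widely read as a trace of interferon exposure.

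RefSeq promoter entries (assembly GRCm38.p6) were available for 34 of the 42 matched members. In the 250 bases before the start site, the ISRE letters (GAAA, any 2 bases, GAAA, on either strand) occurred in 16 of their 41 entries (39.0%; 16 of the 34 members), against 978 of 32851 promoter windows of the same length (2.98%). The GAS letters TTCNNNGAA, whose reverse complement has the same form, occurred in 9 of the 41 entries (21.95%), against 7.02% of all windows. A match is a run of letters, not a shown binding site. The 6 windows printed here belong to members on which the comparisons turn, and capitals mark the ISRE letters, read on either strand; each window is written 5′ to 3′ on the strand of the gene. Ifit1 lies on the plus strand at chr19:34640639-34640888, Rsad2 on the minus strand at chr12:26456453-26456702, Ifit3 on the plus strand at chr19:34583279-34583528, Isg15 on the minus strand at chr4:156200819-156201068, Gbp2 on the plus strand at chr3:142620413-142620662 and the first Trim30a entry on the minus strand at chr7:104465194-104465443.
Ifit1: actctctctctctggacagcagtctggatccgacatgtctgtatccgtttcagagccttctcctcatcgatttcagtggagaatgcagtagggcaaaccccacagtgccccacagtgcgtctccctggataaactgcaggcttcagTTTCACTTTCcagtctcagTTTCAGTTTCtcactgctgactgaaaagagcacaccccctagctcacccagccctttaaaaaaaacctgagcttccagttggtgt
Rsad2: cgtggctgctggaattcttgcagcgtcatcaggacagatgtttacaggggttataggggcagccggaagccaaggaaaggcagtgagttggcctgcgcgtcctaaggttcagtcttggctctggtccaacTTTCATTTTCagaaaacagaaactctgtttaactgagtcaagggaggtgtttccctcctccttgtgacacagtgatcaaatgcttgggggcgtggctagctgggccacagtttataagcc
Ifit3: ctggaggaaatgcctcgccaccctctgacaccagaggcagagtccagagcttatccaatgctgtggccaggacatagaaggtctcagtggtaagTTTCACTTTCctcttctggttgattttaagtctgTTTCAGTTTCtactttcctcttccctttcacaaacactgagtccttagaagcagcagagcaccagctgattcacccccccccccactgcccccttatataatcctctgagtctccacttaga
Isg15: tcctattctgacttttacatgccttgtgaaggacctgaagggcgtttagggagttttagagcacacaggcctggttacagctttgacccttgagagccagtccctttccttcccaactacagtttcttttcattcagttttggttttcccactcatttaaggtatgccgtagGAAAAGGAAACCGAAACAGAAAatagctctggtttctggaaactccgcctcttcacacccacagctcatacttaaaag
Gbp2: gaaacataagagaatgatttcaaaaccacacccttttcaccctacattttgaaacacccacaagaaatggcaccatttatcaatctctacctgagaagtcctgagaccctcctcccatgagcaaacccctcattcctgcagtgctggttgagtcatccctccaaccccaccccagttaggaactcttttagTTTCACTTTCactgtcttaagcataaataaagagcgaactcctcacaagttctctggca
Trim30a: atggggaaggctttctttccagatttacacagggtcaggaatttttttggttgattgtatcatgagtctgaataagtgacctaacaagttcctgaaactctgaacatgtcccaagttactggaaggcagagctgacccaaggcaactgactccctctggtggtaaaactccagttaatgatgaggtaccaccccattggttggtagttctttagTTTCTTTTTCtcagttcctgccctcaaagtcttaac
Ifit1 and Ifit3 each held 2 separate ISRE matches, Isg15 held 3 that overlap in 1 run, and Rsad2, Gbp2 and Trim30a held 1 each; the second RefSeq entry of Trim30a held none.

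For most members, baseline levels were highest in monocyte-like or neutrophil-like cells. Over the 17 classes with at least 20 cells in every library, the class with the highest median over the 4 libraries was the monocyte-like class for 18 of the 42 members, the neutrophil-like class for 9, mature dendritic-like cells for 5, C1q macrophage-like cells for 4, cDC1-like and NK-like cells for 2 each, and CD4 T-like and gamma-delta T-like cells for 1 each. In 6 of the 18 monocyte-led members and 5 of the 9 neutrophil-led members, every library of the leading class lay above every library of the second. Alveolar macrophage-like cells and macrophage cluster 3 led no member. Summed over the 42 members, alveolar macrophage-like cells held 768 to 1024 CPM and macrophage cluster 3 held 730 to 1097 CPM. CD4 T-like cells held 1550 to 2099 CPM and CD8 T-like cells 1576 to 2207 CPM. Tumour-like epithelial cells ranked last of the 17 classes for 10 members: Zbp1, Gbp2, Gbp3, Gbp5, Gbp7, Igtp, Ifi47, Ifi27l2a, Trim30a and Epsti1. The members were left out of the genes used for clustering, and these levels are a description with no test.

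**Figure D1:**
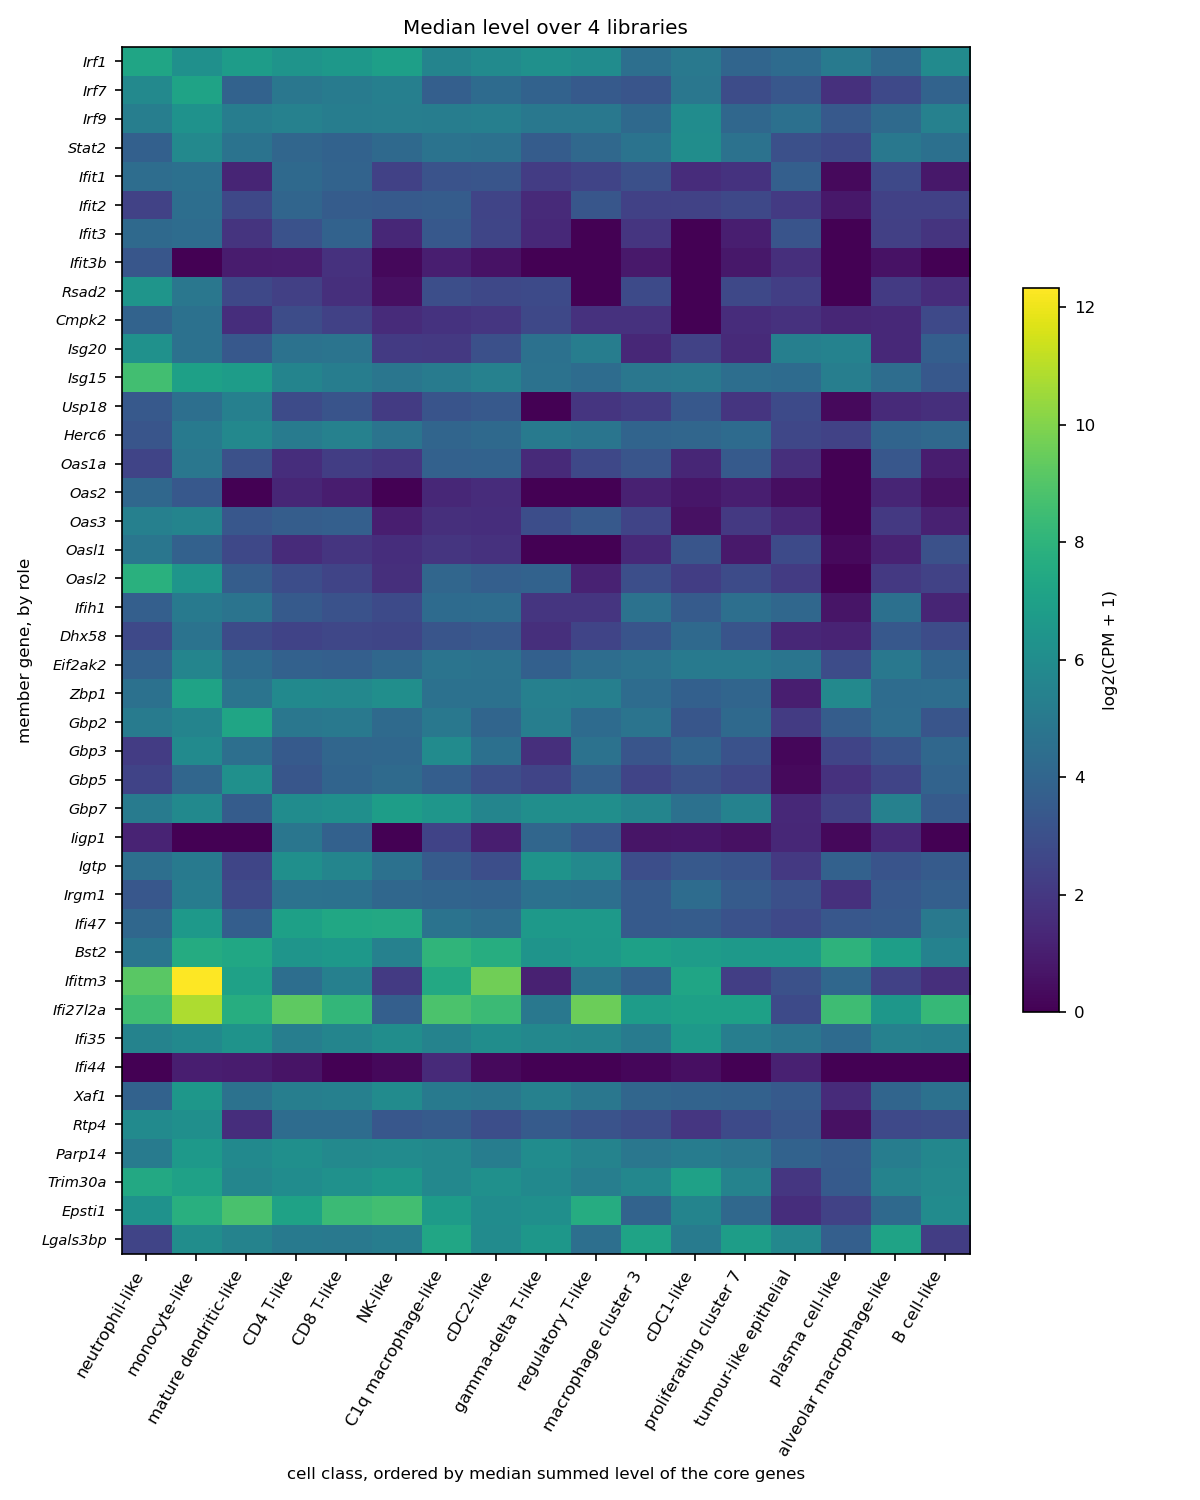
Median level of each matched member over the 4 libraries, as log2(CPM + 1), with genes in rows by role and the 17 classes in columns ordered by the summed level of the core genes. Ifitm3 and Ifi27l2a are brightest in monocyte-like cells, Isg15 and Oasl2 in neutrophil-like cells, and the GTPase rows from Gbp2 to Ifi47 are dark in the tumour-like epithelial column.

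Among the transcription factors, Irf7, which amplifies the type I interferon response, stood at 121, 166, 134 and 144 CPM in monocyte-like cells of Con 1, Con 2, mA1 1 and mA1 2. All 4 values were above those of the next class, neutrophil-like cells, at 51.8 to 62.1 CPM. Irf1, which interferon gamma induces strongly, ranged from 105 to 196 CPM in neutrophil-like and from 114 to 172 CPM in NK-like cells, 2 classes that could not be ordered. Stat2, a transcription factor of type I signalling, was led by cDC1-like cells at 54.2 to 82.4 CPM, overlapping monocyte-like cells at 37.0 to 74.0 CPM.

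The antiviral effectors divided between neutrophil-like and monocyte-like cells. Rsad2 stood at 68.3, 73.0, 99.5 and 138 CPM in neutrophil-like cells and at 14.4 to 55.5 CPM in monocyte-like cells, with no overlap. Ifit1, which binds viral RNA ends, did not order these classes: 12.3, 77.0, 16.8 and 28.2 CPM in monocyte-like against 16.2 to 32.6 CPM in neutrophil-like cells. Within the ISG15 system, Isg15 reached 287, 385, 379 and 449 CPM in neutrophil-like cells, above the 90.5 to 237 CPM of monocyte-like cells. Usp18, the protease that removes Isg15 and restrains the type I receptor, was led by mature dendritic-like cells at 26.8 to 58.9 CPM. Of the oligoadenylate synthetase family, Oasl2 was at 179 to 309 CPM in neutrophil-like and at 67.9 to 92.4 CPM in monocyte-like cells.

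The nucleic acid sensors were led by monocyte-like cells. Zbp1, a sensor of Z-form nucleic acid, stood at 134, 151, 126 and 151 CPM there, against 58.2 to 72.8 CPM in NK-like cells and 0.912 to 2.98 CPM in tumour-like epithelial cells. Eif2ak2, the kinase PKR, stood at 42.3 to 53.9 CPM in monocyte-like cells and ranked 5 of 17 in epithelial cells, at 19.99, 23.2, 29.2 and 29.5 CPM. The GTPases had other leading classes, except Irgm1, which monocyte-like cells led at a median of 35.5 CPM, overlapping CD4 T-like cells. Gbp3 had medians of 59.7 CPM in C1q macrophage-like and 59.5 CPM in monocyte-like cells. Gbp2 stood at 105, 233, 117 and 181 CPM and Gbp5 at 51.6, 80.5, 63.6 and 89.5 CPM in mature dendritic-like cells, each above every library of the second class. Ifi47 was highest in NK-like cells at 148 to 195 CPM, overlapping CD8 T-like cells at 123 to 192 CPM, and Gbp7 in NK-like cells at 97.8 to 139 CPM. Summed over the 8 GTPases and Irf1, NK-like cells reached 453 to 572 CPM, CD8 T-like cells 419 to 542 and CD4 T-like cells 411 to 453, while epithelial cells held 28.8 to 58.0.

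Of the membrane proteins, Ifitm3, which blocks viral fusion, stood at 4898, 5306, 5166 and 5073 CPM in monocyte-like cells, against 642 to 891 CPM in the second class, cDC2-like cells. Ifi27l2a was at 1448 to 2018 CPM in monocyte-like cells and at 697 to 1067 CPM in regulatory T-like cells. Bst2 (tetherin) was broad, at 225 to 275 CPM in C1q macrophage-like and 212 to 260 CPM in plasma cell-like cells, and neutrophil-like cells were its lowest class at a median of 26.3 CPM. The GBP, OAS, IFIT and Trim30 families contain near-identical copies, Ifit3 and Ifit3b among them, so levels of single copies are uncertain.

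The signal was also followed cell by cell. A high-response cell was defined as one with at least 3 UMIs from at least 2 of 18 core inducible genes (Ifit1, Ifit2, Ifit3, Ifit3b, Rsad2, Cmpk2, Isg15, Usp18, Irf7, Oas1a, Oas2, Oas3, Oasl1, Oasl2, Rtp4, Zbp1, Ifi44 and Herc6) after every cell was thinned to 1000 UMIs, so that depth did not set the share; shallower cells were left out. In neutrophil-like cells 213 of 1862 cells qualified (11.4%, exact 95% interval 10.03 to 12.97%), and in monocyte-like cells 24 of 340 (7.06%, 4.57 to 10.3%). Mature dendritic-like cells came next among classes with 4 libraries, at 2.58% (5 of 194 cells). The shares were 1.85% of 2761 CD4 T-like cells, 1.66% of 1687 CD8 T-like cells and 0.608% of 987 tumour-like epithelial cells. The order of the first 2 classes depended on the depth chosen: thinned to 2000 UMIs, 18.1% of 309 monocyte-like and 14.1% of 612 neutrophil-like cells qualified. Only 612 of the 1862 neutrophil-like cells reached that depth, so the cells counted changed as well. The T cell shares depended on the clustering: with the members among the clustering genes they were 2.77% of 2852 CD4 T-like and 0.292% of 1713 CD8 T-like cells. No plasma cell-like cell of 337 qualified, which at 3 counts allows a share of up to 0.890% (exact 95% upper bound 1.09%); 2 of 335 did at 2000 UMIs. Intervals cover counting error only.

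**Figure D2:**
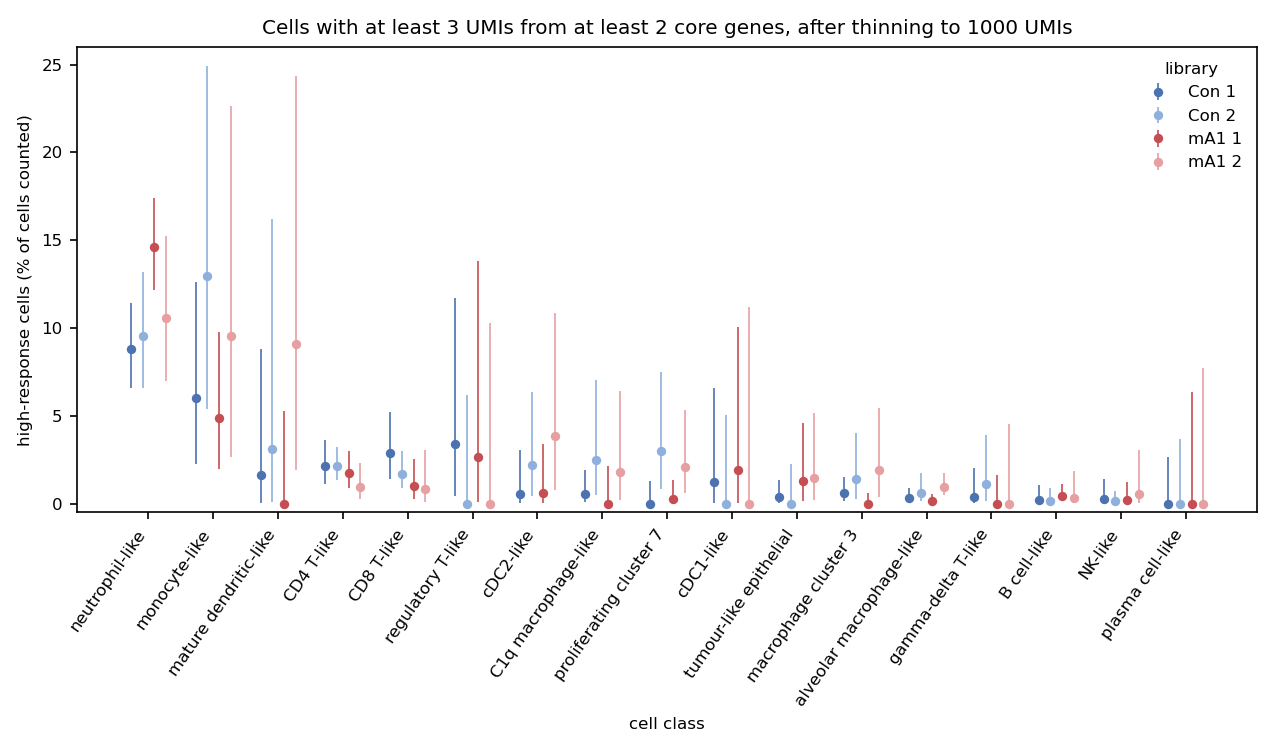
Share of high-response cells (percent of cells with at least 1000 UMIs) by class and library, with exact 95% binomial intervals as bars; blue points are Con and red points mA1 libraries. Neutrophil-like libraries lie between 8.78 and 14.6% and monocyte-like libraries between 4.86 and 12.96%, while each CD4 T-like, CD8 T-like and tumour-like epithelial library is under 3%. The highest library is at 9.09% in mature dendritic-like, 3.85% in cDC2-like and 3.39% in regulatory T-like cells, and at 3.01% in proliferating cluster 7.

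By library, the neutrophil-like share was 8.78% and 9.52% in Con and 14.6% and 10.6% in mA1; the 2 mA1 libraries lay above both Con libraries, but the intervals of mA1 2 (6.97 to 15.2%) and Con 2 (6.61 to 13.2%) overlapped. Monocyte-like shares were 6% and 12.96% in Con and 4.86% and 9.52% in mA1, with overlap. CD4 T-like shares were 2.13% and 2.15% in Con and 1.73% and 0.917% in mA1, and CD8 T-like shares 2.88% and 1.71% against 0.995% and 0.848%. In both T cell classes the mA1 libraries were the lower ones, within overlapping intervals. With the members among the clustering genes the CD8 T-like shares were 0.283% and 0.567% against 0% and 0%, from 5 high-response cells in place of 28. High-response cells held 54.7% of all core UMIs of neutrophil-like cells, 39.3% in monocyte-like, 30.7% in CD4 T-like and 30.1% in tumour-like epithelial cells. They were chosen by their core UMIs, so a part above their share of cells follows from the definition. The share of such cells also rises with the mean level of a class. Median core sums were highest in neutrophil-like (1042 CPM) and monocyte-like cells (817 CPM). Whether the shares exceed what these levels alone would give was not tested.

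Members outside the core list were not used to choose these cells, and they were higher there too. In neutrophil-like cells 22 of the 24 such members had a higher CPM in the high-response cells than in the 1649 others, at a median ratio of 3.27 and with similar depth (median 1537 against 1710 UMIs a cell). Xaf1 stood at 64.0 against 8.20 CPM, Gbp2 at 145 against 27.2 CPM and Ifitm3 at 1837 against 483 CPM, while Iigp1 and Lgals3bp were lower. All 24 were higher in the high-response cells of the CD4 T-like class (median ratio 6.76) and of the CD8 T-like class (5.19), and 23 of 24 in monocyte-like cells (3.56), where Irf9 was lower. In CD4 T-like cells Iigp1 stood at 309 against 22.3 CPM, Bst2 at 641 against 74.5 CPM and Trim30a at 512 against 63.3 CPM. The cells of a library are not replicates of each other, so these ratios are descriptions.

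Within neutrophil-like cells the core level was set out by sub-cluster, summed over the libraries. The largest of 5 sub-clusters, 1350 cells led by Mmp8 and Retnlg, held 1394 CPM of core UMIs and 14.6% high-response cells. The second, 630 cells led by Egln3, Hbegf, Ccl3 and Tnf, held 874 CPM and 7.67%. This order of the pooled values did not hold in every library: the core sum was 1015 CPM in the first and 1825 CPM in the second in mA1 2, and the high-response share was 8.70% and 11.7% in Con 2. The third, 100 cells led by the granule genes Camp and Ngp, held 168 CPM and 0 of 99 high-response cells. The other 2, with 41 and 6 cells, were led by T cell and B cell genes.

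In tumour-like epithelial cells 2 members passed the test, both higher in the libraries labelled mA1, and both owed most of their counts to 1 cell a library. The quasi-likelihood test of edgeR on UMIs summed per library called 8 of 12021 genes at a Benjamini-Hochberg adjusted p under 0.05 (0.0666%; 0.0582% higher in mA1). Of the 38 members tested, 2 rose, Ifit1 and Rsad2, and none fell. Positive log2 fold changes were found for 36 of the 38, against 49.4% of all genes, and their median was 0.69 against -0.0054 over all genes. Unadjusted p was under 0.05 for 16 members, all positive, against 8.21% of genes. Both mA1 libraries lay above both Con libraries for 24 of the 38 members, against 20.2% of genes, and below them for 0 (18.6%). Oas2, Zbp1, Gbp3 and Gbp5 were too low to be tested.

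Ifit1 stood at 3.35 and 1.86 CPM in Con and at 26.8 and 20.99 CPM in mA1. Its log2 fold change was 3.12 ± 0.30 (SE), adjusted p 0.0209 by edgeR. Rsad2 stood at 0.516 and 0.547 CPM in Con and at 7.35 and 14.1 CPM in mA1, a log2 fold change of 4.32 ± 0.51 with an edgeR adjusted p of 0.0391. The groups did not overlap for either gene. Ifit3 stood at 3.16 and 1.42 against 19.6 and 13.4 CPM (2.76 ± 0.38, edgeR adjusted p 0.0678) and did not pass. Both calls were lost without mA1 library 1 (edgeR adjusted p 0.202 for Ifit1 and 0.0766 for Rsad2) and without mA1 library 2 (0.230 and 0.318), where the lone mA1 library is assumed to vary as the Con libraries do. DESeq2 called 4 members, among 0.757% of genes. Without Con library 2 both calls held, at 0.00220 and 0.0241.

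The UMIs behind these values were concentrated. In mA1 library 1, 1 cell held 127 of the 153 Ifit1 UMIs and 41 of the 42 Rsad2 UMIs of the class, with 79 of 112 for Ifit3. In mA1 library 2, 1 cell held 128 of the 138 Ifit1 UMIs and 80 of the 93 Rsad2 UMIs. These 2 cells carried 432 of 859 and 395 of 991 core UMIs of their libraries, with 17 and 16 of the 18 core genes detected. The leading Con cells held 73 of 736 and 68 of 575. Both mA1 cells had all 5 epithelial markers counted here (436 and 422 UMIs), 2 and 5 UMIs of myeloid markers, and 1 and 0 UMIs of lymphocyte markers, at 21929 and 61892 UMIs in all. Both belonged to the epithelial sub-cluster led by Sec14l3, Lcn2, Lamp3 and the MHC class II genes Cd74 and H2-Aa, which held 4 of the 6 high-response epithelial cells.

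Leaving out the 1 cell with the most core UMIs in each library ended both calls. Ifit1 then stood at 3.24 and 1.55 CPM in Con and 4.57 and 1.54 CPM in mA1, with overlapping groups (log2 fold change 0.27 ± 0.59, edgeR adjusted p 0.937). Rsad2 stood at 0.519 and 0.331 against 0.176 and 2.00 CPM and was too low to be tested. No member of 34 tested was called, 6 had an unadjusted p under 0.05, and edgeR called 6 of 12003 genes (0.05%). Of the 34, 31 were positive with a median of 0.49, and mA1 lay above Con in both libraries for 19 of the 38. With all cells, 8.21% of all genes had an unadjusted p under 0.05, and mA1 lay above Con for 20.2%. These shares are not given here for the sums without the top cells. The 6 and the 19 are therefore not set against a background of their own. The removal was chosen after the single-cell counts were seen.

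The epithelial cells of the libraries also fell into different sub-clusters, which differ in their core level. Sub-clusters of 28 and 13 cells were led by macrophage genes (Chil3, Lyz2) and by T cell genes (Ccl5, Cd3d). They held 63.3 and 61.6 CPM of core UMIs over all libraries and were kept in the class sums. The sub-cluster led by Cxcl3, Cxcl1 and Ly6a held 13.9% and 16.05% of Con cells and 37.7% and 50.4% of mA1 cells, and the Sec14l3 and Lcn2 sub-cluster 9.36% and 14.8% against 27.3% and 16.8%. Over all libraries these 2 held 94.5 and 315 CPM of core UMIs, against 12.3 to 53.8 CPM in the other 4 of the 6 largest, among them 1 that held 54.3% of Con library 2. Within the Cxcl3 sub-cluster the core sum was 68.9 and 171 CPM in Con and 67.4 and 93.6 CPM in mA1, so the groups overlapped. Within the Sec14l3 sub-cluster it was 172 and 111 CPM in Con and 483 and 498 CPM in mA1 with all cells. Without the top cell of each library it was 172 and 111 CPM against 138 and 108 CPM, again with overlap. The top cells of the Con libraries lay in other sub-clusters, so only the mA1 values lost a cell here. Con library 1 kept a cell with 67 of its 178 core UMIs in this sub-cluster. The part of the sub-cluster make-up in the member values over the whole class was not tested.

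**Figure D3:**
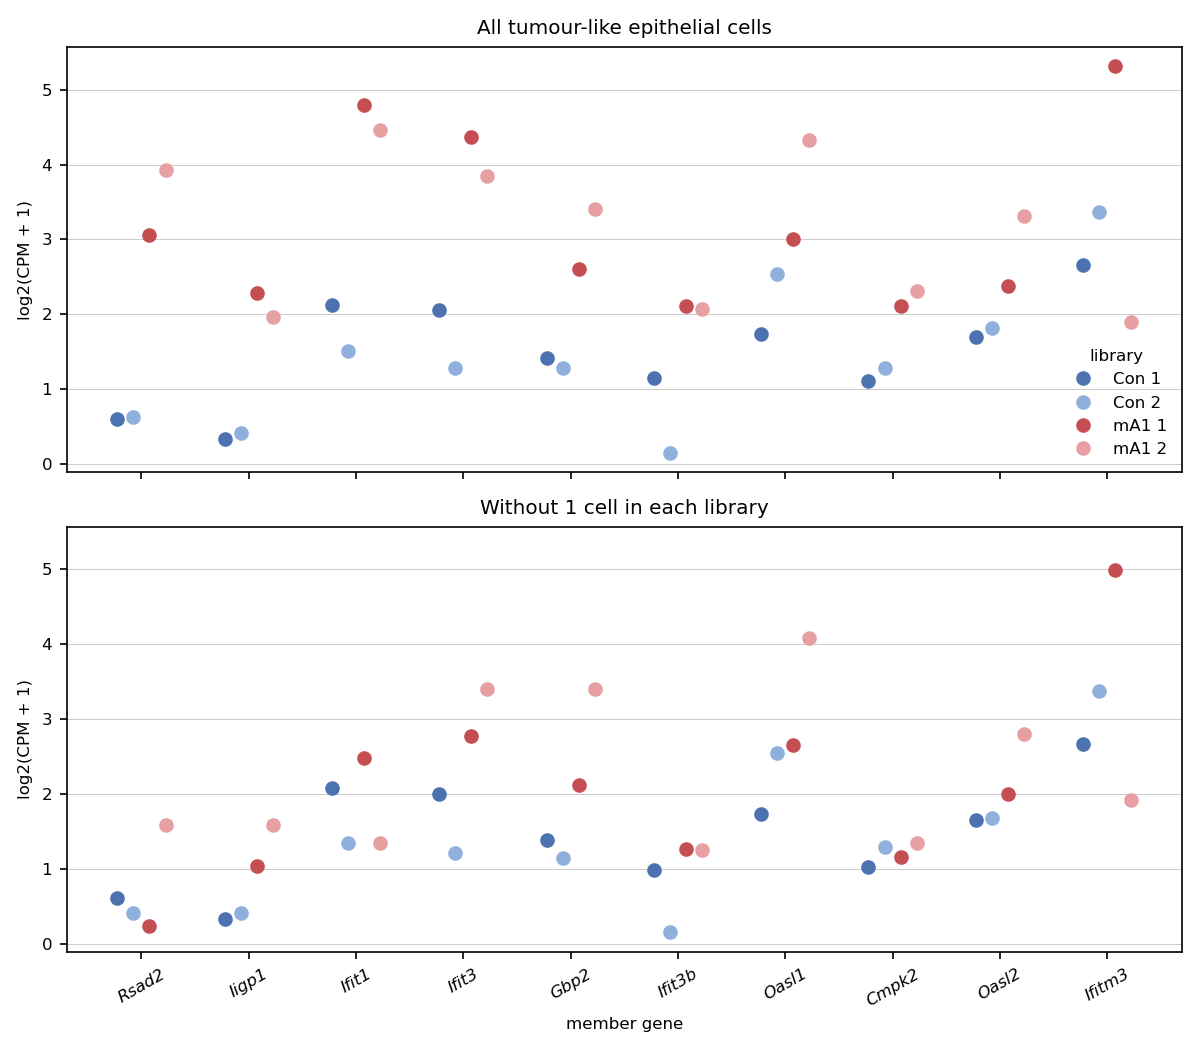
Levels of the 10 members with the largest fitted fold changes in tumour-like epithelial cells, as log2(CPM + 1), 1 point per library; the upper panel uses all cells and the lower panel leaves out the 1 cell with most core UMIs in each library. Red mA1 points stand above blue Con points for 9 of the 10 genes in the upper panel; in the lower panel Ifit1, Rsad2 and Cmpk2 mix, and Ifit3, Gbp2, Iigp1, Ifit3b, Oasl1 and Oasl2 stay ordered.

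Several members did not depend on these cells to the same degree. Ifit3 without them stood at 2.98 and 1.32 CPM in Con and 5.80 and 9.52 CPM in mA1 (1.79 ± 0.48, edgeR adjusted p 0.377). Irf7 stood at 5.87 and 6.02 against 13.1 and 12.2 CPM with all cells (1.07 ± 0.24, edgeR adjusted p 0.250) and kept a log2 fold change of 1.10 without them. Gbp2, a GTPase that interferon gamma induces, stood at 1.68 and 1.42 against 5.08 and 9.58 CPM (2.23 ± 0.46, edgeR adjusted p 0.204) and had a value of 2.17 without them and of 1.19 without the 5 cells with most core UMIs in each library. In mA1 library 2, however, another single cell held 40 of the 63 Gbp2 UMIs. None of these values passed the test.

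Thinning every epithelial cell to 10000 UMIs gave the share of cells with any UMI of a gene. Ifit1 was found in 0.833% and 1.25% of Con cells and in 4.83% and 2.26% of mA1 cells, and Irf7 in 4.79% and 3.75% against 7.59% and 10.5%. Rsad2 was found in 0.625% and 0.625% against 0.690% and 2.26%. Exact 95% intervals of Con and mA1 libraries overlapped for all 3 genes, as for Ifit1 in mA1 1 (1.96 to 9.69%) and Con 1 (0.228 to 2.12%). Some other members had single pairs of libraries without overlap, mA1 being the higher. Among them were Irf1 in mA1 1 (15.6 to 29.7%) against Con 1 (8.38 to 14.2%) and Irf9 in mA1 2 (22.4 to 38.6%) against Con 1 (11.2 to 17.6%). Rtp4 in mA1 2 (7.035 to 18.8%) against Con 1 (1.45 to 4.59%) was another. For no member did an mA1 interval lie clear of both Con intervals. Without thinning, Ifit1 UMIs were in 2.25% and 7.41% of Con and 9.74% and 3.65% of mA1 cells, at median depths of 23902 and 47275 against 29724 and 40256 UMIs a cell. No class here is known to lack these genes, so no background share could be set beside them.

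By role, 7 of 7 antiviral effectors tested were positive in epithelial cells (median 2.12, 2 called), 4 of 4 transcription factors (0.43), 3 of 3 members of the ISG15 system (0.68), 3 of 4 OAS genes (1.10), 3 of 3 sensors (0.43), 6 of 6 GTPases (0.96) and 10 of 11 membrane and other genes (0.52). Outside the effectors none was called. These values use all cells. Without the 1 cell with most core UMIs in each library, the effector median was 0.41 over 6 tested, with 0 called. In the same order, the other medians were then 0.41, 0.22, 1.05, 0.42, 0.51 and 0.44. Isg15 stood at 10.1 and 16.5 against 30.8 and 20.99 CPM (0.94 ± 0.29, edgeR adjusted p 0.499). Oasl1, at 2.32 and 4.82 against 7.005 and 19.01 CPM, had a log2 fold change of 1.91, Oasl2 of 1.47, Cmpk2 of 1.49, Ifit3b of 2.12 and Iigp1 of 3.47. In mA1 1 and mA1 2 a single cell held 12 of 19 and 16 of 26 Cmpk2 UMIs. For Ifit3b it was 11 of 19 and 12 of 21, and for Iigp1 16 of 22 and 6 of 19. For Oasl1 it was 10 of 40 and 48 of 125, and for Oasl2 7 of 24 and 20 of 59. Ifitm3 had a log2 fold change of 1.43 ± 1.41 from 5.29 and 9.31 CPM in Con and 38.7 and 2.74 CPM in mA1, and reversed to -1.35 without mA1 library 1. Markers of other cells in the same sums were in no list above both Con values in the 2 mA1 values: myeloid markers stood at 681 and 316 CPM in Con against 497 and 420 CPM in mA1, lymphocyte markers at 49.8 and 77.8 against 41.9 and 40.0, plasmacytoid dendritic cell markers at 42.5 and 14.1 against 0.876 and 5.63, with 2 to 3 of their 4 genes at 0, and haemoglobin RNA at 53.5 and 39.6 against 9.98 and 4.71. Cox6a2, 1 of the plasmacytoid markers, was also a leading gene of an epithelial sub-cluster that held 30.7% of the cells of Con 1. That list therefore need not mark other cells here. The part of these markers in the member values was not tested.

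In immune cells the members showed no shared direction. Across 16 classes, each with its own edgeR fit, 380 values of members were tested, 193 were positive and 1 was called. The share of all genes called in these fits was 0.263% in NK-like, 0.144% in CD8 T-like, 0.0926% in CD4 T-like, 0.0755% in plasma cell-like, 0.0697% in gamma-delta T-like, 0.0217% in macrophage cluster 3, 0.0213% in monocyte-like, 0.0189% in alveolar macrophage-like and 0.0165% in B cell-like cells, and 0% in the other 7. Class medians ran from -0.28 in CD8 T-like and -0.15 in CD4 T-like cells to 0.21 in neutrophil-like and 0.23 in plasma cell-like cells. These medians moved with single libraries: the plasma cell-like one was 0.54 without Con library 1, 0.095 without Con library 2 and 0.056 without mA1 library 2, and the neutrophil-like one 0.093 without Con library 1.

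**Figure D4:**
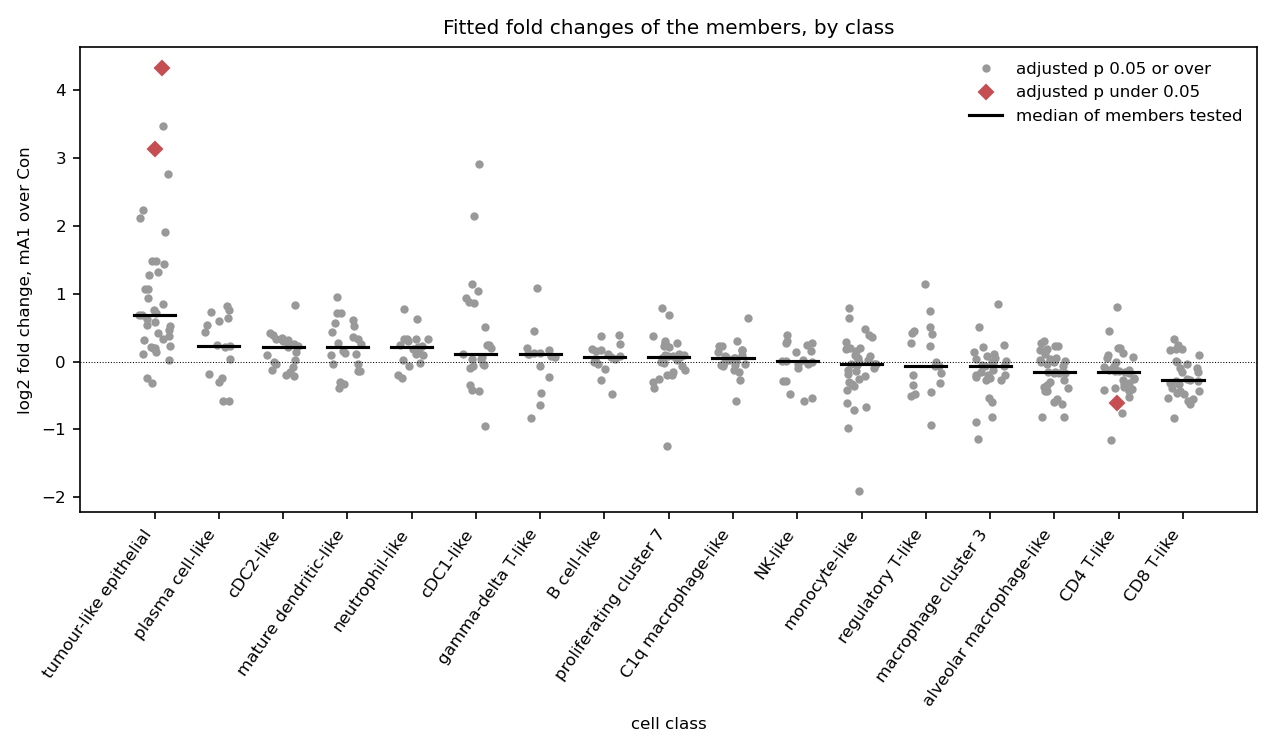
Fitted log2 fold change of mA1 over Con for each member tested (points), by class, with the class median as a black bar and members at an adjusted p under 0.05 as red diamonds. The tumour-like epithelial median is 0.69, the CD8 T-like median is -0.28, and the only diamond outside epithelial cells is Trim30a in CD4 T-like cells.

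The called member was Trim30a in CD4 T-like cells, a RING-domain ubiquitin ligase that restrains innate signalling in mouse cells. Its level was 74.0, 68.7, 91.1 and 88.2 CPM in the Con tumours and 53.9, 52.6, 44.1 and 53.2 CPM in the mA1 tumours. All mA1 tumours lay below all Con tumours, and Trim30a fell by 0.62 on the log2 scale (SE 0.13, edgeR adjusted p 0.0492), 1 of 7 genes called of 7561 (0.0926%). The call was lost without Con library 2 (log2 fold change -0.46, edgeR adjusted p 0.815), without mA1 library 1 (0.104) or 2 (0.278), with the libraries as replicates (0.916) and under DESeq2 (0.468), among others. Trim30a has near-identical neighbours, so its reads may be shared among copies. In the same class 4 of 32 members had mA1 below Con without overlap, against 3.5% of genes (and 0 above, 1.15%): Gbp2, Trim30a, Bst2 and Ifit1. Ifit1 had a log2 fold change of -1.15 ± 0.25 (edgeR adjusted p 0.0508). It stood at 21.5 to 32.8 CPM in Con and 6.97 to 15.1 CPM in mA1. Its epithelial value had the reverse sign with all cells (3.12), but without the top cell of each library the epithelial groups overlapped. In CD4 T-like cells the 51 high-response cells held 154 Ifit1 UMIs and the 2710 others 62. The core genes summed to 313, 295, 352 and 270 CPM in Con and 215, 251, 168 and 220 CPM in mA1 tumours, beside the lower share of high-response cells in mA1 given above; the part of that share in the sums was not tested.

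Other classes gave single values without calls. In CD8 T-like cells 22 of 29 members were negative, with a median of -0.28 that was -0.013 without Con library 1 (14 of 29 positive), -0.10 without its hashtag 1 tumour alone and -0.51 without Con library 2. The hashtag 1 tumour of Con library 1 had a core sum of 692 CPM, the other 7 between 214 and 301. In this class Xaf1 and Irf9 lay below Con without overlap (2 of 29, against 4.93% of genes, with 0 above, 0.99%; edgeR called 0.144% of genes and no member). Xaf1, a pro-apoptotic interferon target, stood at 42.0 to 65.5 CPM in Con and 28.1 to 39.1 CPM in mA1 tumours. In neutrophil-like cells 15 of 19 members were positive, no member was free of overlap (2.36% of genes lay above, 0.54% below) and none was called, as no gene was (0 of 3892; 112 genes, 2 of them members, had an unadjusted p under 0.05, and DESeq2 called 0). The 2 were Oasl2, with tumour medians of 169 against 268 CPM (0.62 ± 0.21), and Rsad2, at 71.3 against 105 CPM (0.77 ± 0.35). Their summed core level was 906, 801, 928 and 925 CPM in the Con tumours and 1409, 1024, 1071 and 1332 CPM in the mA1 tumours, all mA1 values being the higher. In cDC1-like cells, fitted on libraries, Isg15 stood at 19.1 and 5.93 CPM in Con and 61.0 and 41.2 CPM in mA1 (2.15 ± 0.43, edgeR adjusted p 0.201), with 7 of 23 members above Con in both libraries, against 12.4% of genes, and 2 below (22.5%). In that class 2 high-response cells held 149 of 429 core UMIs, and the member median of 0.11 was -0.030 with the members among the clustering genes. In monocyte-like cells Ifit3 stood at 24.7 and 70.9 CPM in Con and 10.8 and 14.1 CPM in mA1 (-1.91 ± 0.57, edgeR adjusted p 0.9995), in a class where 4 of 36 members lay below Con in both libraries, against 16.4% of genes, and 3 above (14.7%).

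Whether the group difference itself differed between compartments was tested with epithelial cells and the summed immune classes of each library in 1 edgeR model. No gene of 15492 passed, hence 0 of 42 members (0%); 39 of the 42 differences were positive, with a median of 0.85, and 18 had an unadjusted p under 0.05, against 5.71% of genes. The smallest adjusted p among members was that of Rsad2, at 0.113 (4.11 ± 0.46 higher in epithelial cells on the log2 scale). Gbp2 followed at 1.97 ± 0.34 and edgeR adjusted p 0.279. The epithelial sums in this model kept all cells. Among them was 1 cell with 41 of the 42 Rsad2 UMIs in mA1 1 and 1 with 80 of the 93 in mA1 2. The model was not fitted without these cells, so their part in the differences was not tested. Without Con library 1, 5 members passed, among 1.89% of all genes, and without Con library 2, 1, with 8 of 15785 genes.

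The genes that act before the members gave no call in any class. In epithelial cells 4 of 6 receptors, 4 of 11 signalling genes, 4 of 4 feedback inhibitors and 5 of 8 upstream sensing genes tested were positive. Ifnlr1, the type III receptor chain, had 267 of its 375 UMIs in tumour-like epithelial cells, at 6.64, 8.10, 8.06 and 6.69 CPM over the libraries. Ifngr1 stood at 58.5 and 50.8 CPM in Con and 67.4 and 64.9 CPM in mA1 epithelial cells (0.25 ± 0.17, edgeR adjusted p 0.750). Of 10 ligand genes, 4 had any UMI: Ifng had 1890, Ifnb1 9, Ifnk 6 and Ifna2 1. Ifng, the ligand of the gamma pathway, was at 126 to 261 CPM in NK-like and 63.7 to 119 CPM in CD8 T-like cells. Ifnb1 was at 0 UMIs in the epithelial class of all 4 libraries, the 2 cells with most core UMIs included.

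Single tumours also differed within a group. Con library 2, hashtag 1, had the highest summed core level of the 8 tumours in 5 of the 11 classes measured by tumour. The mA1 library 2 tumours had the highest sum of GTPases and Irf1 in 3 and 4 of the 11 classes, with a median rank of 2 each.

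**Figure D5:**
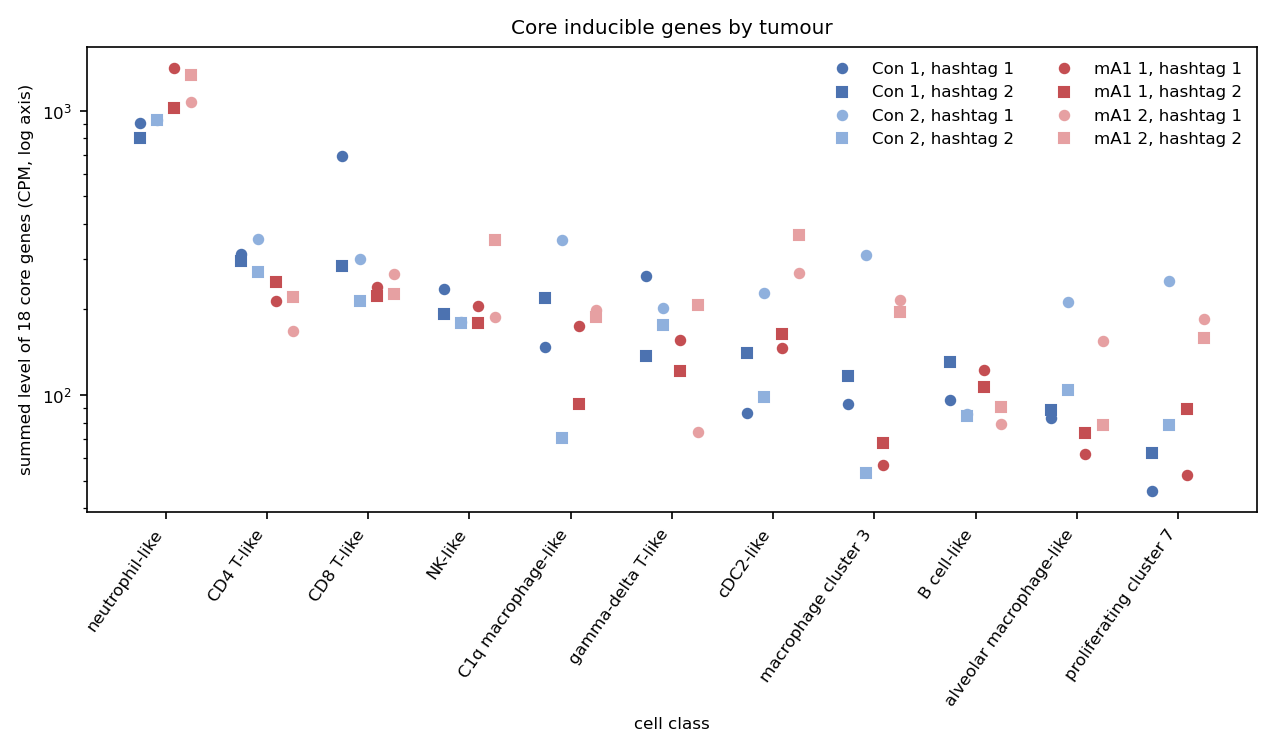
Summed level of the 18 core genes (CPM, log axis) in each of 8 tumours, for the 11 immune classes with at least 20 cells in every tumour; colour gives the library and marker shape the hashtag. In neutrophil-like cells all mA1 tumours (1024 to 1409 CPM) lie above all Con tumours (801 to 928 CPM), in CD4 T-like cells all lie below, and Con 2, hashtag 1, is the top point in alveolar macrophage-like cells at 213 CPM.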

How the data were processed

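Cells of 4 libraries were measured by 10x single-cell RNA sequencing with hashtag antibodies. The deposited matrices hold raw UMI counts per feature and barcode, made with Cell Ranger 6.0.1 on mm10, per the submitters' processing notes; 4939 to 10168 barcodes and 48319272 to 74996867 UMIs a library. Members and lists were chosen with earlier results of these data known.

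A barcode was kept if it had 500 or more UMIs, 250 or more genes and a mitochondrial share of no more than 15%. Each hashtag was called with a mixture fitted to barcodes with 10 or more counts, a minimum set after the counts were seen, and 111 to 300 cells a library with both hashtags were left out as doublets. Scrublet removed 0 to 95 further cells a library; it called none in Con library 2, where doublets were therefore left out by hashtags only. Taking a tumour as a library and hashtag is a reading of the labels. Scanpy 1.11.5 clustered the cells (2000 variable genes without the members and pathway genes, 30 components, 15 neighbours, resolution 1) into 33 clusters, named from marker genes with the clusters in view; 6 clusters (1229 cells) stayed unnamed.

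UMI sums per class and sample went into edgeR 4.0.16 under R 4.3.3 (TMM, filterByExpr, robust quasi-likelihood, two-sided, Benjamini-Hochberg over all genes of the class at 0.05): 4 tumours a group where each held at least 20 cells (11 immune classes), otherwise 2 libraries a group. SEs are the fold change divided by the square root of F. Any member could be named; full statistics were due for members past the threshold and, in epithelial cells, the 10 with the largest fold changes. On simulated counts, 5 of 100 2-fold and 64 of 100 4-fold changes were recovered for epithelial cells (11795 genes), and 28 and 93 of 100 for CD4 T-like cells (7240 genes). Alternatives included DESeq2 1.42.0, limma 3.58.1 with a library block, other filters and left-out samples; leaving out single epithelial cells and the crossed block were added after the data were seen, as were the neutrophil sub-clusters, the core sums within epithelial sub-clusters, the count of non-core members in high-response cells and the choice of promoters printed.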

Additional observations from a re-analysis of the deposited data

Results flagged for a closer look

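The summed levels and high-response shares of 11 immune classes were checked for single tumours far from the other 3 of their group, in 66 groups of 4. In 9 groups the highest tumour stood apart by Dixon's test; chance alone marks about 1 in 20.

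Hashtag 1 of Con library 2 stood apart in 4 of the 9. Its core genes summed to 213 CPM in alveolar macrophage-like cells, where the other Con tumours had 83.3 to 104 CPM. In proliferating cluster 7 its core sum was 251 CPM against 45.9 to 78.4 CPM, and its sum of GTPases and Irf1 was 140 CPM against 97.6 to 102 CPM. In C1q macrophage-like cells 5% of its cells were high-response cells, against 0 to 0.763%.

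Hashtag 1 of Con library 1 stood apart in the sum of GTPases and Irf1, at 636 CPM in NK-like cells against 491 to 514 CPM, and at 704 CPM in CD8 T-like cells against 469 to 485 CPM. Among mA1 tumours, hashtag 2 of library 2 had a core sum of 350 CPM in NK-like cells against 180 to 205 CPM. It was also marked for a share of 2.08% of high-response cells in C1q macrophage-like cells, where the others had none. With all others at 0, Dixon's test marks any share above 0. Over all libraries only 7 of 775 C1q macrophage-like cells were high-response cells, so this share and the 5% above rest on few cells. Hashtag 1 of mA1 library 2 had 1.75% high-response cells among alveolar macrophage-like cells, against 0 to 0.186%.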

How the results depend on the processing

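Of 177 recomputed fold changes, 143 kept direction and side of the threshold. The count of members called in epithelial cells was 2; it was 4 under DESeq2 (91 of 12021 genes), 10 with no filter on low counts (375 of 19198 genes), and 0 with tumours split by hashtags at 80%, without the top cell, without the 5 top cells or without the high-response cells of each library. Leaving out 1 library gave 0 to 3, the 3 without Con 1 (189 of 12273 genes) and without Con 2 (55 of 12315). Ifitm3 reversed to -1.35 without mA1 library 1 and was 2.35 without mA1 library 2. In immune classes the count was 1; it was 0 under DESeq2, clustering with the members, libraries as replicates, the limma block and a 10% mitochondrial limit, 2 with DESeq2 size factors and 5 with no filter (0.172% of all values, against 0.044% in the main analysis). Leaving out a library gave 9 (Con 1), 0 (Con 2), 7 (mA1 1) or 3 (mA1 2), while 1.61%, 0.166%, 0.348% and 0.273% of all genes were called, and leaving out a tumour 0 to 2. For the interaction, leaving out a library gave 5 members (Con 1), 1 (Con 2) or 0 (either mA1). The mean high-response share over libraries was 10.9% in neutrophil-like, 8.34% in monocyte-like and 0.783% in epithelial cells. It was 16.3%, 13.1% and 1.53% at 2 or more UMIs, 5.29% and 4.14% in the first 2 classes at 5 or more, 14.3%, 19.5% and 1.59% thinned to 2000 UMIs, and 17.7%, 45.8% and 24.9% without thinning, so the first 2 classes changed order in the last 2 settings. The causes were not tested.

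No label ties same-numbered libraries to 1 animal or batch. Their deviations correlated at -0.053 in epithelial cells and from -0.138 (regulatory T-like) to 0.176 (plasma cell-like) over the 17 classes, so the numbers were not taken as pairs. With the replicate block 3 epithelial values (37 of 12021 genes) and 2 immune values (0.103% of all immune values) were called. With the crossed replicate block it was 2 and 3, with 0.247% of all immune values called. The main analysis called 0.044% of them. The share of epithelial genes called with the crossed block is not given here.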
